A study of Homo sapiens with 28 samples.

Results

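New shared regions were places in the genome of GP5d cells at which at least 2 of 11 targets had peaks together under RAD21 siRNA (siRAD21), while under control siRNA no target had a peak within 1000 bp. They were selected by peak calls alone: siRAD21 peaks of all targets that overlapped by at least 1 bp were joined, and the joined regions were set against the control peaks of all targets. The 158109 siRAD21 peaks gave 83331 joined regions, of which 34166 held at least 2 targets and are called shared here. Of these shared regions, 784 were new, which is 2.29% (95% exact binomial interval 2.14 to 2.46). Both the presence of peaks under siRAD21 and their absence under control siRNA went into this choice, so the values of the new shared regions are given as a description and were not tested. All intervals are exact (Clopper-Pearson) and cover counting error only.

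GP5d is an established human colon adenocarcinoma cell line. Chromatin immunoprecipitation followed by sequencing (ChIP-seq) was made 72 hours after transfection with 50 nM of an siRNA, a short RNA duplex that directs the breakdown of a matching messenger RNA. The siRNA was directed at RAD21 in one set of libraries and was a non-targeting control in the other. Each set held 1 library for each of the 11 targets, so there was no replicate check, and a difference between the siRNAs cannot be told apart from a difference between the libraries. The level of RAD21 RNA or protein was not analysed here.

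Cohesin is a ring-shaped complex that keeps sister chromatids paired and extrudes loops of chromatin; RAD21 closes the ring and SMC3 forms an arm of it. NIPBL loads the ring, and CTCF, a DNA-binding protein with many zinc fingers, halts it, so that cohesin and CTCF peaks usually coincide. Monomethylation of histone H3 at lysine 4 (H3K4me1) lies at enhancers and beside promoters, where transcription factors bind in groups. The libraries of H3K4me1 are named here by their titles. Their catalogue number in the labels is known for an antibody to histone H3 of any modification, so every H3K4me1 value below carries that doubt. The number given for MYC is likewise known for a mouse antibody, although the title names rabbit.

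Depth moved with the siRNA. After removal of repeated positions the siRAD21 libraries held 1747770 to 15263937 tags (median 7006171), against 3629966 to 19926326 (median 9603820) in the control libraries. The siRAD21 library held 0.346 to 0.619 times as many tags as its control for 9 targets, 1.02 times as many for MYC and 2.02 times as many for JUND. The rabbit immunoglobulin G (IgG) background library, against which 9 of the targets were called, held 4101535 tags under siRAD21 and 8916252 under control siRNA. A missing control peak means that no peak passed the authors' p cutoff of 1e-05 there, not that no protein was bound. The part of depth and of the IgG libraries in the choice of the regions was not tested.

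New regions were less frequent among shared regions than among regions of 1 target. Of the 49165 siRAD21 regions with a peak of 1 target, 8409 had no control peak of any target within 1000 bp, or 17.1%, against 2.29% of the shared regions. Over all 83331 joined regions, 9193 were new (11%), and the 784 shared ones made up 8.53% of these (interval 7.96 to 9.12). The same rule with the siRNAs exchanged found 7909 of 54850 shared control regions with no siRAD21 peak within 1000 bp, or 14.4%. The 784 regions held 1984 peaks, which is 1.26% of all siRAD21 peaks. The other 33382 shared regions were the set against which the new ones are described below; 33070 of them overlapped a control peak and 312 lay within 1000 bp of one without overlap.

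Most new shared regions were pairs. A total of 555 held 2 targets, 134 held 3, 56 held 4, 28 held 5, 6 held 6, none held 7, 4 held 8 and 1 held 9. Regions of 3 or more targets made up 29.2% of the new shared regions (229 regions, interval 26.1 to 32.5) and 58.0% of the other shared regions. Those of 5 or more made up 4.97% of the new (39 regions, interval 3.56 to 6.74) and 12.1% of the other shared regions.

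**Figure D1:**
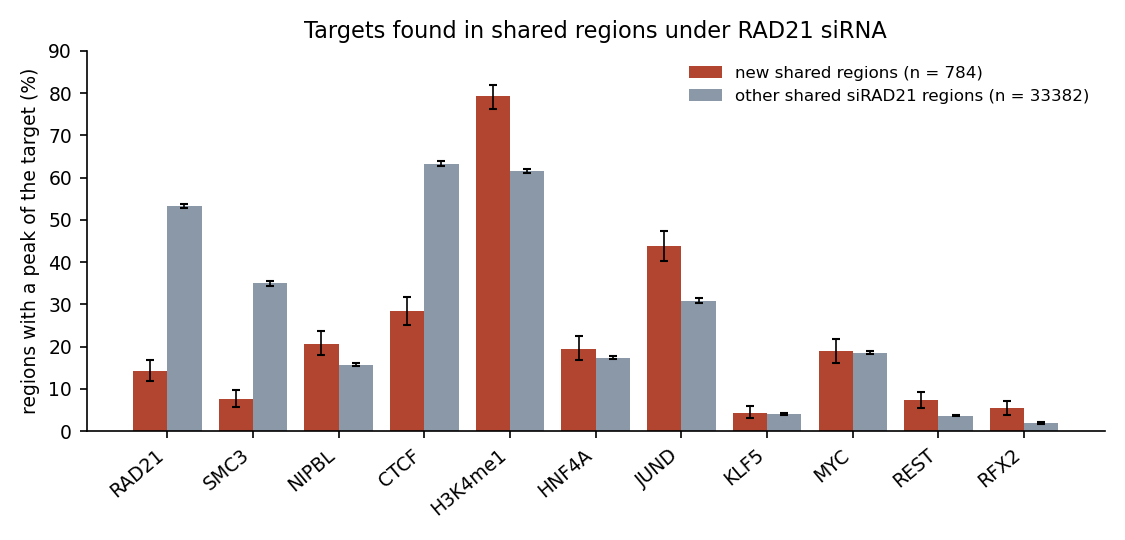
Share of new shared regions (red, n = 784) and of other shared siRAD21 regions (grey, n = 33382) that held a peak of each target, in percent, with exact 95% binomial intervals. H3K4me1 reached 79.2% of the new shared regions and JUND 43.8%, while RAD21 stood at 14.3%, against 53.2% of the other shared regions.

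Cohesin was found in few of the new shared regions. RAD21, the subunit that the siRNA was directed at, had a peak in 112 of 784 (14.3%, interval 11.9 to 16.9), against 53.2% of the other shared regions. SMC3, its partner in the ring, had a peak in 59 (7.53%, interval 5.78 to 9.60), against 34.9%. Both subunits were present in 16 new shared regions (2.04%), against 30.5% of the other shared regions. With siRAD21 peaks of an FDR (false discovery rate) under 5% only, RAD21 was in 18 of 277 new shared regions (6.50%), against 53.1% of the other shared regions, and SMC3 in 1 (0.361%), against 17.3%. Counted the other way, with all peaks, 0.626% of the shared regions with RAD21 and 0.503% of those with SMC3 were new, below the 2.29% of all shared regions.

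CTCF had a peak in 222 new shared regions (28.3%, interval 25.2 to 31.6), against 63.3% of the other shared regions, and mostly stood there without cohesin. In 166 new shared regions CTCF had no cohesin subunit beside it (21.2%), against 13.5% of the other shared regions. CTCF with at least 1 subunit was seen in 56 (7.14%), against 49.8%. The triplet of CTCF, RAD21 and SMC3 was present in 6 new shared regions (0.765%), against 28.4% of the other shared regions. Regions that held exactly these 3 targets numbered 2 among the new and 6262 among the other shared regions. A total of 463 new shared regions held neither CTCF nor cohesin (59.1%), against 28.8%. The CTCF share depended on the peaks used. With siRAD21 peaks of an FDR under 5% only, CTCF was in 186 of 277 new shared regions (67.1%), against 78.5% of the other shared regions. All siRAD21 peaks of CTCF and of H3K4me1 passed that threshold, so it removed peaks of the other targets only, which favours a higher CTCF share. Without the siRAD21 JUND, MYC and NIPBL libraries CTCF was in 212 of 455 (46.6%), against 74.95%.

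NIPBL, the loader, had a peak in 162 new shared regions (20.7%, interval 17.9 to 23.7), against 15.7% of the other shared regions. In 29 of these 162 a cohesin subunit was also called, against 2001 of the 5229 other shared regions with NIPBL. With siRAD21 peaks of an FDR under 5% only, NIPBL was in 12 of 277 new shared regions (4.33%), against 6.202% of the other shared regions, so that the order of the sets was the opposite. The control list of NIPBL held no peak with an FDR under 5% and that of JUND held none either, so the control side of these targets is weak at that threshold.

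H3K4me1 was the most frequent target. It had a peak in 621 new shared regions (79.2%, interval 76.2 to 82.0), against 61.5% of the other shared regions. In 423 new shared regions it was joined by 1 protein (54.0%, against 24.7%) and in 198 by 2 or more (25.3%, against 36.9%). The remaining 163 held no H3K4me1 peak. H3K4me1 also supplied the strongest peak, by significance, in 465 new shared regions (59.3%). That share was not worked out for the other shared regions, and H3K4me1 had the most siRAD21 peaks of all targets (53581 of 158109). With siRAD21 peaks of an FDR under 5% only it was in 267 of 277 (96.4%), against 62.4%. All siRAD21 peaks of H3K4me1 and of CTCF passed that threshold, so it removed peaks of the other targets only. A rise of the H3K4me1 share of the new shared regions was thus favoured in advance. Without the siRAD21 H3K4me1 library the count of new shared regions was 397, since a region that pairs H3K4me1 with 1 protein then holds 1 target.

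Among the 6 transcription factors, JUND, an AP-1 subunit that responds to growth and stress signals, was in the most new shared regions. It had a peak in 343 of 784 (43.8%, interval 40.2 to 47.3), against 30.9% of the other shared regions. Its siRAD21 library was the only one with far more tags than its control (15263937 against 7558614), and 12319 peaks were called in it, against 4678 in the control library; the part of this library in the result was not tested. Without the siRAD21 JUND library the rule found 605 new shared regions. Of 348 JUND peaks in the new shared regions, 6 had an FDR under 5% (1.72%), while 5.83% of all siRAD21 JUND peaks did. In the regions named below, every JUND peak with a score (−10 × log10 p) of 51.9 to 213.6 had an FDR of 6.19%, just above that threshold. The JUND counts at an FDR under 5% thus depend on where the threshold falls. When only siRAD21 peaks with an FDR under 5% were used, JUND was in 5 of 277 new shared regions (1.81%), against 3.21% of the other shared regions. With peaks of a significance score (−10 × log10 p) of at least 100 it was in 60 of 132 (45.5%), against 23.8%.

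HNF4A, a nuclear receptor of gut and liver epithelium, was in 153 new shared regions (19.5%, interval 16.8 to 22.5), against 17.4% of the other shared regions. MYC, a regulator of cell growth, was in 148 (18.9%, interval 16.2 to 21.8), against 18.6%. KLF5, a zinc finger factor of the intestinal crypt, was in 34 (4.34%, interval 3.02 to 6.01), against 4.10%. For these 3 factors the share among the other shared regions lay within the interval of the share among the new ones. REST, a repressor of neuronal genes, was in 57 (7.27%, interval 5.55 to 9.32), against 3.65%. RFX2, a factor of cilium genes, was in 42 (5.36%, interval 3.89 to 7.17), against 1.91%, from the shallowest library of the set. In the MYC library 64% of the siRAD21 tags were repeated positions, against 29% of the control tags. These shares were 38%, against 14%, for JUND, 37%, against 16%, for REST and 25%, against 20%, for HNF4A. The control library had the higher share for RFX2 (15%, against 66%) and for KLF5 (31%, against 51%). The part of repeated positions in the result was not tested. At an FDR under 5% MYC was in 3 of 277 new shared regions (1.08%), against 4.19% of the other shared regions, HNF4A in 64 (23.1%, against 18.3%), KLF5 in 6 (2.17%, against 2.85%), and REST and RFX2 in 19 each (6.86%, against 3.32% for REST and 1.85% for RFX2).

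Regions of a given target were less often shared when they were new. Of the 800 siRAD21 regions that held JUND and had no control peak nearby, 343 were shared (42.9%), whereas 93.0% of all siRAD21 regions with JUND were shared. The shared part of the new regions was 37.7% for NIPBL, against 92.6% of all its regions, 25.5%, against 92.4%, for RAD21, 19.7%, against 68.0%, for CTCF and 13.6%, against 40.9%, for H3K4me1. The value of the new regions was the lower one for each of the 11 targets, down to 7.95%, against 29.4%, for REST.

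The targets combined in 150 different ways, 78 of which occurred once. The commonest combination was H3K4me1 with JUND and nothing else, in 123 regions (15.7%), followed by CTCF with H3K4me1 in 108 (13.8%) and H3K4me1 with HNF4A in 62 (7.91%). Together these 3 made up 293 regions, or 37.4%. H3K4me1 with MYC followed with 30 regions and H3K4me1 with NIPBL with 29. CTCF with RAD21 and nothing else was found in 17 new and 4291 other shared regions.

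Pairs of proteins without H3K4me1 differed in how often they were new. Regions of exactly 2 proteins, one of them CTCF, numbered 32 new and 5102 other shared regions, so that 0.623% were new. Most of these regions held CTCF with RAD21, with 17 new and 4291 other shared regions (0.395% new). CTCF with JUND had 5 and 64 (7.25%), with REST 3 and 67 (4.29%) and with MYC 2 and 35 (5.4%). With NIPBL it had 2 and 27 (6.9%), with RFX2 2 and 18 (10%) and with HNF4A 1 and 28 (3.45%). Of the 9 CTCF pairs, those with KLF5 and with SMC3 had no new region and held the rest of the 5102 other shared regions. Regions of exactly 2 proteins without CTCF numbered 100 new and 684 other shared regions, or 12.8% new, over 34 pairs. Of these pairs, 5 had at least 5 new regions. These 5 were picked by that count, which favours a high share of new regions, so their shares are a description only. JUND with NIPBL alone was found in 16 new and 41 other shared regions (28.1% new), JUND with MYC in 12 and 43 (21.8%), MYC with NIPBL in 10 and 24 (29.4%), HNF4A with JUND in 8 and 25 (24.2%) and JUND with SMC3 in 5 and 2 (71.4%). The other 29 pairs together had 49 new and 549 other shared regions (8.19% new), among them HNF4A with SMC3 in 4 and 1, RAD21 with RFX2 in 4 and 2 and HNF4A with REST in 4 and 8. Apart from CTCF with RAD21, each pair with its own count given here rests on few regions, and all rest on 1 library per protein.

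**Figure D2:**
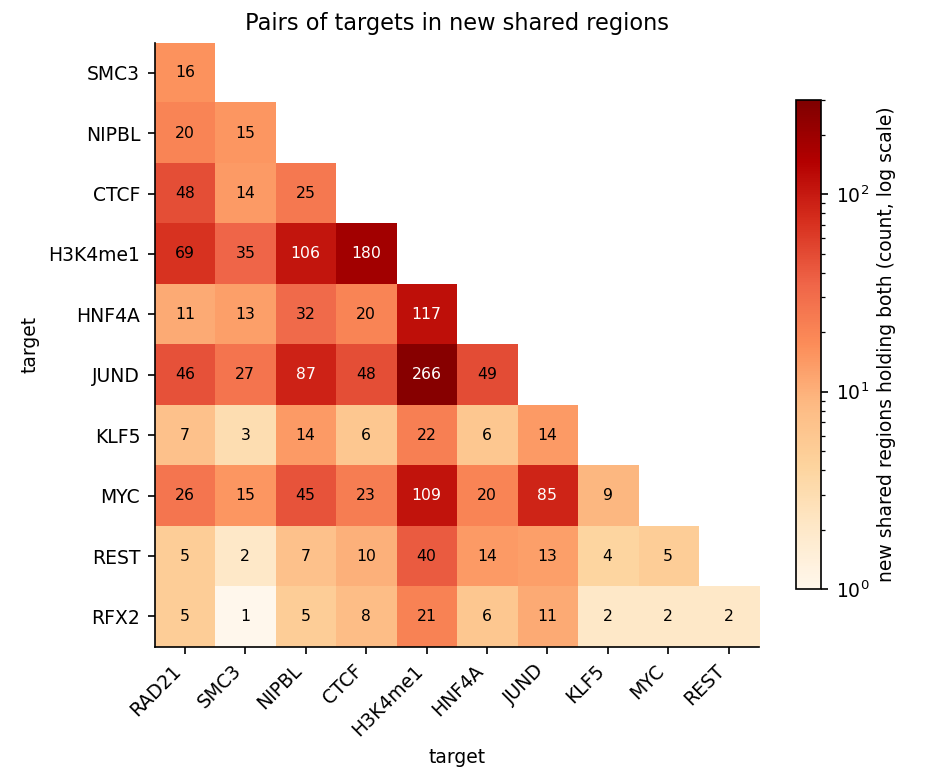
Number of new shared regions that held both targets of each pair, out of 784; colour is on a log scale and a region of 3 or more targets counts for each of its pairs. All 55 pairs were found, from 1 region with RFX2 and SMC3 to 266 regions with H3K4me1 and JUND.

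Counted over all new shared regions, whatever else they held, H3K4me1 and JUND came together in 266 (33.9%, against 29.1% of the other shared regions). The other large pairs had a share near or below that of the other shared regions. CTCF and H3K4me1 came together in 180 (22.96%, against 27.3%), H3K4me1 and HNF4A in 117 (14.9%, against 16.7%), H3K4me1 and MYC in 109 (13.9%, against 17.4%) and H3K4me1 and NIPBL in 106 (13.5%, against 14.6%). Between proteins the largest counts were 87 for JUND with NIPBL (11.1%, against 11.2%) and 85 for JUND with MYC (10.8%, against 12.9%). CTCF with RAD21 came to 48 and MYC with NIPBL to 45 (5.74%, against 8.17%). CTCF with RAD21 stood in 6.12% of the new shared regions, against 47.0% of the other shared regions, where it was the commonest pair of proteins.

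The summits of the factors lay close together. The median distance between summits in new shared regions was 118 bp for JUND and NIPBL, against 121 bp in other shared regions. It was 116 bp, against 120 bp, for JUND and MYC. It was 108 bp, against 130 bp, for MYC and NIPBL. CTCF and RAD21 summits were farther apart in the new shared regions, with a median of 95 bp, against 53 bp, and 79.2% of pairs within 250 bp, against 94.6%. H3K4me1 summits lay farther from the factors, with a median of 391.5 bp to JUND in new shared regions, against 725 bp in others, 316 bp to CTCF, against 655 bp, and 287 bp to HNF4A, against 644 bp. The H3K4me1 peaks themselves were shorter in the new shared regions, with a median length of 2026 bp, against 3298 bp.

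New shared regions were narrower and held fewer tags. Their width had a median of 2009 bp and ranged from 675 to 9935 bp, against a median of 2499 bp and a range of 441 to 49103 bp in other shared regions. With H3K4me1 the medians were 2240 bp, against 3823 bp, and without it 1303 bp, against 1592 bp. The tags of all peaks in a region summed to a median of 61 in the new shared regions (16 to 462), against 129 in the others (16 to 4694). Widths and summed tags were not matched by number of targets. Regions of 2 targets made up 70.8% of the new and 42.0% of the other shared regions.

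The weaker members of the new shared regions lay near the authors' threshold, while the strongest often did not. The score used here is −10 × log10 p as deposited, with a floor of 50, and each region counts once per target with its strongest peak. Within a new shared region the weakest target had a median score of 59.7, against 68.0 in other shared regions, and the strongest a median of 116.6, against 295.9. H3K4me1 reached a score of 100 in 59.1% of its new shared regions, against 85.3% of its other shared regions, and CTCF in 37.8%, against 75.5%. The median score in new shared regions was lower than in other shared regions for all 11 targets, as were the median tags and the median peak length, whereas the median fold enrichment over IgG was lower for 6 of 11. RAD21 had a median score of 62.6 in new shared regions, against 115.3 in others, with 16.5 tags, against 31. CTCF had 82.9, against 183.5, with 15 tags, against 31. H3K4me1 had 118.2, against 296.3, with 42 tags, against 95. JUND had 70.9, against 89.9, with 26 tags, against 44. RFX2 differed least, with 88.3, against 90.8, and 6 tags, against 7.

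**Figure D3:**
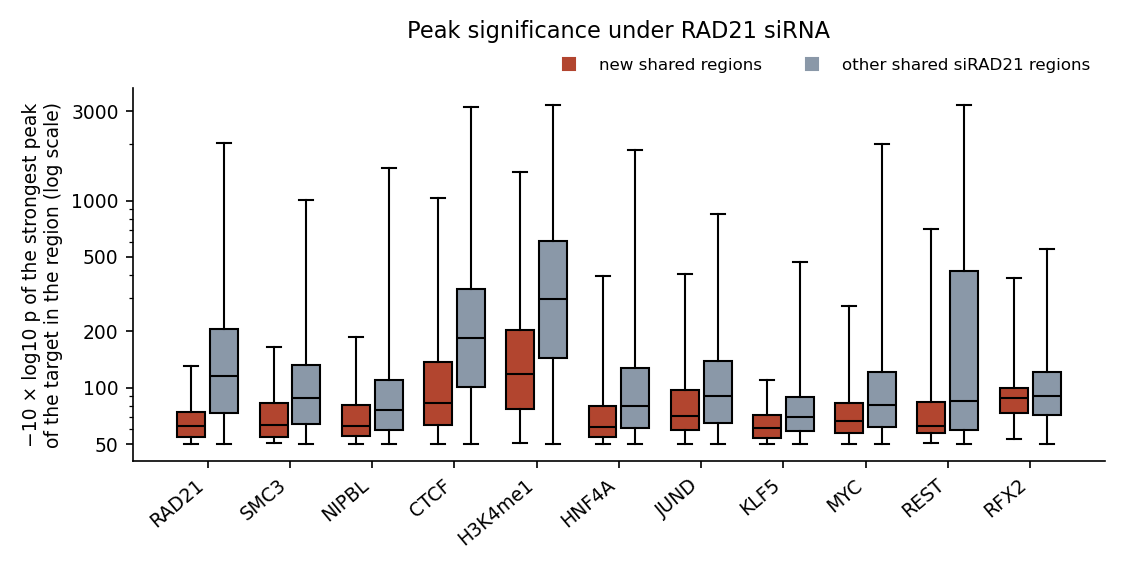
Score (−10 × log10 p, log axis) of the strongest peak of each target in new shared regions (red) and in other shared siRAD21 regions (grey); boxes are quartiles with the median, whiskers run from lowest to highest. In new shared regions the medians lie between 61.2 for KLF5 and 118.2 for H3K4me1, each below that of the same target in the other shared regions.

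The share of new regions among shared ones was lower where the evidence for a second target was stronger. Ranked by the second-highest target score in the region, 510 of 10185 shared regions with a score of 50 to 75 were new (5.01%), 144 of 5901 between 75 and 100 (2.44%), 107 of 10940 between 100 and 200 (0.978%), 21 of 5418 between 200 and 400 (0.388%) and 2 of 1722 at 400 or above (0.116%). Thus 65.1% of the new shared regions rested on a second target with a score under 75, against 29.0% of the others.

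The FDR sorted the targets differently from the score, although both rest on the IgG library as well as on the ChIP library. All 225 CTCF and all 636 H3K4me1 peaks in new shared regions had an FDR under 5%, as did 100% of the siRAD21 peaks in both lists. The count was 18 of 113 for RAD21 (15.9%, against 62.5% of its list), 3 of 60 for SMC3 (5%, against 30.5%), 14 of 164 for NIPBL (8.54%, against 23.7%) and 3 of 151 for MYC (1.99%, against 12.9%). It was 72 of 154 for HNF4A (46.8%, against 65.2%), 7 of 34 for KLF5 (20.6%, against 41.9%), 25 of 57 for REST (43.9%, against 71.7%) and 26 of 42 for RFX2 (61.9%, against 65.8%). In 278 new shared regions (35.5%) at least 2 targets had a strongest peak with an FDR under 5%, in 415 just 1 target had one and in 91 none had. This count was not made for the other shared regions. Joined from siRAD21 peaks of an FDR under 5% only, 22222 regions were shared, against 34166 with all peaks, and 277 were new, against 784.

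The nearest control peak of any target was 1007 to 343075 bp away, with a median of 5572.5 bp. It lay more than 5000 bp away for 427 new shared regions (54.5%), more than 10000 bp for 235 (30.0%) and more than 100000 bp for 5. That nearest control peak was of H3K4me1 for 369 regions (47.1%) and of CTCF for 199 (25.4%). These targets also had the most control peaks of all, 61108 for H3K4me1 and 44027 for CTCF. Around the distance threshold, 71 new shared regions lay 1000 to 1500 bp from a control peak and 146 shared regions lay 500 to 1000 bp from one. The region just past the threshold was on chromosome 17 from 52515925 to 52517492, 1007 bp from a control peak, with H3K4me1 (31 tags, score 111.8) and JUND (28 tags, score 52.1). The region just short of it was on chromosome 14 from 95156173 to 95157588, 990 bp from a control peak, also with H3K4me1 (17 tags, score 59.2) and JUND (28 tags, score 74.5). Positions are those of the authors' files on the hg18 build.

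New shared regions were spread over many chromosomes. They lay on every one of the numbered chromosomes and on X, from 8 on chromosome 18 to 81 on chromosome 1, and 2 lay on unplaced sequence. As a share of the shared regions of a chromosome they ranged from 1.30% on chromosome 18 (interval 0.562 to 2.54) to 3.75% on chromosome 19 (62 regions, interval 2.88 to 4.78). Chromosome 16 had 43 (3.23%), chromosome 7 had 56 (3.22%) and X had 31 (3.15%). Among shared regions with H3K4me1, the share was 5.29% on X and 4.37% on chromosome 19, against 2.93% over all.

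**Figure D4:**
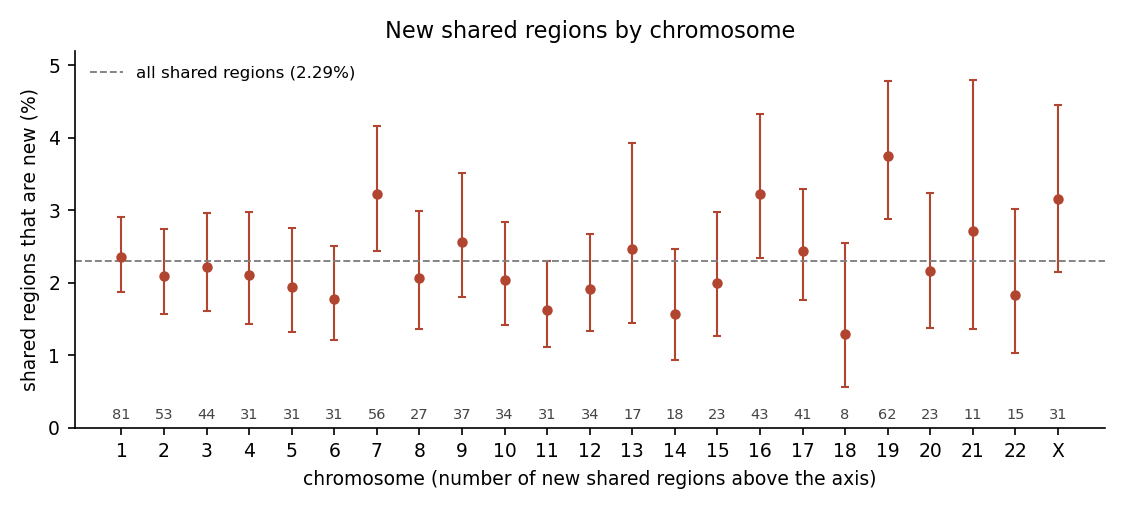
Share of the shared siRAD21 regions of each chromosome that were new, in percent, with exact 95% binomial intervals; the number of new shared regions stands above the axis and the dashed line marks 2.29%. Chromosomes 7, 16 and 19 have intervals above the line.

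Most new shared regions had no other within 100 kb, while some windows held several. Of 2663 windows of 1 Mb with a shared region, 579 (21.7%) held a new one: 455 held 1, 78 held 2, 26 held 3 and 20 held 4 or more. A total of 150 new shared regions (19.1%) lay within 100 kb of another, in 65 runs. No share expected from another placement was worked out, so whether they cluster was not tested. The longest run held 5 regions on chromosome 9 from 139126607 to 139258960. Windows with most were chromosome 1 from 1000001 to 2000000 (7 of 29 shared regions, 24.1%) and 2 neighbouring windows of chromosome 9 from 138000001 to 140000000. The latter held 7 of 54 (12.96%) and 7 of 40 (17.5%), against 2.29% of all shared regions.

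A small group of 39 new shared regions, on 16 chromosomes, held 5 or more targets. All 39 held JUND (interval 91.0 to 100%), against 85.4% of the other shared regions with 5 or more targets. H3K4me1 was in 37 (94.9%, against 98.4%), MYC in 29 (74.4%, against 68.7%) and NIPBL in 28 (71.8%, against 61.9%). RAD21 was in 21 (53.8%, against 66.5%), SMC3 in 13 (33.3%, against 48.9%), CTCF in 18 (46.2%, against 69.5%) and HNF4A in 17 (43.6%, against 49.8%). With 39 regions the intervals of these shares are wide, and for H3K4me1, MYC, NIPBL, RAD21, SMC3 and HNF4A they include the share of the other regions. The summits of their proteins were spread over a median of 343 bp, against 786.5 bp in the other shared regions of 5 or more targets, and over at most 500 bp in 25 of 39 (64.1%), against 35.9%. Their median width was 2902 bp, against 4926 bp. Neither the span nor the width was matched by number of targets. Of the 39 regions, 11 held 6 or more targets, against 2001 of all 4081 shared regions of 5 or more. In the 39 regions the weakest target had a score of 50.3 to 100.2, with a median of 54.8.

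**Figure D5:**
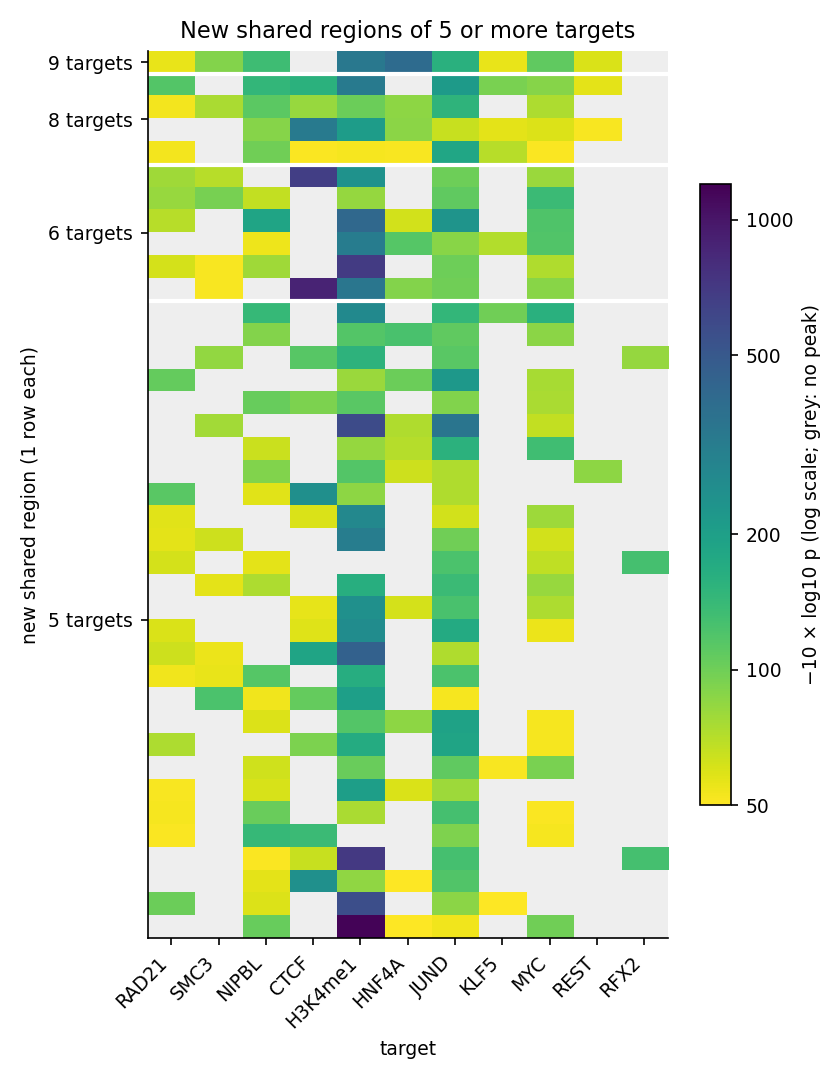
Score (−10 × log10 p, log colour scale) of the strongest peak of each target in the 39 new shared regions of 5 or more targets, 1 row per region in order of the number of targets; grey marks targets without a peak. The JUND column is filled in all 39 rows, and the RAD21 column in 21.

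The region of most targets was on chromosome 7 from 72673418 to 72677011, 3318 bp from the nearest control peak, and held 9 targets with 384 tags. HNF4A was strongest there, with 56 tags and a score of 394.9, and this was also the strongest HNF4A peak of all new shared regions. H3K4me1 had 90 tags and a score of 334.5, the stronger of 2 JUND peaks 74 tags and 158.7, NIPBL 37 tags and 134.5, and MYC 36 tags and 108.9. SMC3 had 20 tags (score 89.9), REST 9 (60.1), KLF5 12 (55.9) and RAD21 28 (55.4). CTCF and RFX2 had no peak in it. Of the 9 targets, 3 passed an FDR of 5% (HNF4A, H3K4me1 and NIPBL), while MYC stood at 22.4% and KLF5 at 23.68%. The summits of the strongest peaks of the 8 proteins spanned 756 bp.

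The most compact of the 4 regions with 8 targets was on chromosome 10 from 43250471 to 43252723. All 8 summits lay within 113 bp of each other, and those of CTCF and H3K4me1 fell on the same base. JUND had 36 tags (score 151.6), NIPBL 18 (111.8), H3K4me1 29 (101.9), HNF4A 16 (85.6), CTCF 9 (81.2), SMC3 14 (74.5), MYC 14 (74.1) and RAD21 11 (52.7). H3K4me1, CTCF, HNF4A and NIPBL passed an FDR of 5% there.

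Another was on chromosome 2 from 95235085 to 95239111, 21333 bp from the nearest control peak, where JUND had 68 tags (score 213.6), CTCF 34 (157.1), NIPBL 29 (146.2) and RAD21 31 (117.3). There 5 of the 8 targets passed an FDR of 5%. The one on chromosome 8 from 107350946 to 107353754 was the most remote of the 4, 59630 bp from any control peak, and was led by CTCF with 50 tags (score 323.4). In it 3 of the 8 targets passed an FDR of 5%. The one on chromosome 14 from 103098610 to 103101486 was led by JUND with 45 tags (score 182.1), while CTCF, HNF4A, MYC, H3K4me1 and RAD21 all had scores between 50.7 and 52.9. Of its 8 targets, 2 passed an FDR of 5%.

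The strongest peak of each target showed what the best evidence in new shared regions looked like. For RAD21 it was on chromosome 19 from 17253934 to 17255517, with 23 tags and a score of 129.9. A CTCF summit with 43 tags (score 387.3) lay 2 bp from it, and H3K4me1 had 21 tags (score 83.1). The strongest SMC3 peak, with 43 tags and a score of 164.3, was on chromosome 1 from 154478413 to 154481099 and was paired with JUND alone, whose peak had 17 tags (score 57.7). The strongest NIPBL peak, with 31 tags and a score of 187.2, was on chromosome 10 from 124701979 to 124705292 in a region of 6 targets.

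The strongest CTCF peak in a new shared region had 109 tags, a score of 1029.2 and a fold enrichment of 79.1 over IgG. It was on chromosome 19 from 14450759 to 14452938, 4746 bp from the nearest control peak, and RAD21 was beside it with 34 tags and a score of 69.0. Another CTCF peak of that strength, with 116 tags and a score of 929.1, was paired with H3K4me1 (118 tags, score 518.1) on chromosome 14 from 104259463 to 104265238. It was the region with the strongest weaker member of all, and 1 of the 2 in which the second target reached a score of 400. The strongest H3K4me1 peak, with 205 tags and a score of 1426.8, was on chromosome 17 from 77646048 to 77648627 with HNF4A, JUND and MYC.

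For the factors, the strongest JUND peak had 72 tags and a score of 403.5 on chromosome 16 from 8622060 to 8625297, with an NIPBL summit 6 bp away. The strongest MYC peak, with 52 tags and a score of 273.4, was on chromosome 10 from 104180408 to 104183775, beside a JUND peak of 97 tags (score 341.6). REST reached 78 tags and a score of 703 on chromosome 2 from 25418591 to 25420333, with CTCF (17 tags), H3K4me1 (30 tags) and HNF4A (13 tags). RFX2 reached 16 tags and a score of 387.4 on chromosome 1 from 154452156 to 154453577, in a region without H3K4me1 where CTCF, HNF4A and REST summits lay within 56 bp. KLF5 reached 15 tags and a score of 110.1 on chromosome 8 from 29581730 to 29584215. The best regions of the commonest and the third commonest combination were on chromosome 18 from 5286419 to 5288370, with H3K4me1 (50 tags, score 259) and JUND (29 tags, score 146.4), and on chromosome 16 from 530494 to 534967, with H3K4me1 (102 tags, score 464) and HNF4A (24 tags, score 158.2). The widest new shared region, of 9935 bp, was on chromosome 1 from 26896467 to 26906401 and held H3K4me1 (306 tags), MYC (15 tags) and SMC3 (12 tags).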

How the data were processed

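The series holds 28 ChIP-seq libraries. Peak lists of 22 were used, and the peaks of the 6 IgG libraries were not analysed here. CASAVA 1.4, BWA, MACS 1.4 and the hg18 build are named in the submitters' processing notes. The authors called each library separately with MACS 1.4.0rc2 against IgG of the matching siRNA and host (goat for CTCF and RFX2, rabbit for the rest), with a p cutoff of 1e-05 and 1 tag kept per position, per the file headers. For each peak the deposited files give coordinates, a summit, the count of tags, the score (−10 × log10 of the p-value), the fold enrichment, which is a linear ratio, and an FDR in percent. That FDR was read from the last of 10 columns, which has no name, after its values under 5 were found to be as many as the deposited labels state in 22 of 22 libraries.

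Groups came from titles and descriptions. A separate siRNA tag in the labels conflicts with them for all siRAD21 libraries but CTCF. Regions were joined from all deposited peaks, and distance was the gap between nearest coordinates, with overlap as 0. Counts were made with Python 3.11.15, NumPy 2.4.6 and SciPy 1.17.1, and the joining was tested on simulated data. The regions and the lists were chosen with earlier results of these data known. Regions were named by rule: the 5 with most targets (ties by the larger weakest score), the strongest peak of each target, the best region of the 3 commonest combinations, those next to the distance threshold and the widest. Genes and sequences at the regions are not given, since no genome or annotation of hg18 was used here. The alternatives, among them other distances, thresholds and left-out libraries, are in the closing section.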

Additional observations from a re-analysis of the deposited data

How the results depend on the processing

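The number of new shared regions, 784, was within 1.5 times of itself under 15 of 25 alternatives. It was 427 with no control peak within 5000 bp and 235 within 10000 bp. It was 277 with siRAD21 peaks of an FDR under 5% only, 132 with siRAD21 peaks of a score of at least 100 only and 1939 with control peaks of an FDR under 5% only. It was 492 where the summits of 2 targets had to lie within 250 bp and 229 with at least 3 targets. It was 397 without the siRAD21 H3K4me1 library, 7909 with the siRNAs exchanged and, in an alternative chosen after seeing the data, 455 without the siRAD21 JUND, MYC and NIPBL libraries. Leaving out one other siRAD21 library gave 605 (JUND) to 768 (KLF5). The cause of these shifts was not tested, beyond fewer peaks or libraries entering. H3K4me1 with JUND was the commonest pair in 18 of 25 alternatives and CTCF with H3K4me1 in 5. At an FDR under 5% CTCF was in 67.1% of the new shared regions, against 28.3% of them with all peaks, and H3K4me1 in 96.4%, against 79.2%. All siRAD21 peaks of both targets passed that threshold, so it removed peaks of the other targets only. NIPBL, MYC and SMC3 were in 4.33%, 1.08% and 0.361% at that threshold. The median width lay between 1358 and 2538 bp, except with peaks limited to 200 bp either side of the summit (555.5 bp). No paired analysis was possible because each target had 1 library per siRNA and no result came from a test. Depth was lower under siRAD21 for 9 of 11 targets, which limits what could be called there, and weak control peaks under the cutoff could not be counted.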
